A study of Mus musculus with 4 samples.

Results

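The genes described are 10 components of the unfolded protein response and the integrated stress response: Ern1, Atf6, Eif2ak3, Eif2ak4, Atf4, Ddit3, Dnajb9, Sel1l, Crebrf and Ppp1r15b. Every peak that the deposited lists assign to one of these gene names was taken, whatever its value. All 10 held at least 1 peak. They were chosen with earlier results of these data known, so this count is no result about the pathways. Of 77 further genes of the same pathways, described below, 49 held a peak. In all, 8889 genes had a peak in either list. The study sequenced RNA precipitated from the livers of male C57BL/6 mice that had received an adeno-associated virus (AAV), a gene delivery vector, carrying either GFP as the control or NAT10. NAT10 is the enzyme that writes N4-acetylcytidine (ac4C) into RNA. Each virus had 1 immunoprecipitated (IP) and 1 input library, 4 libraries in all, and 1 list of peaks was deposited per virus, here called the control list (AAV-GFP) and the NAT10 list (AAV-NAT10).

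The labels leave several features of the groups unsettled. They describe precipitation with an antibody against a protein, yet they also name an ac4C library type, so whether NAT10 or the modified base was captured is not known here. Their extraction text speaks of db/db and lean animals, while the sample titles give only the virus. Nothing in them states the vector's promoter, the dose, the time after injection, the age of the mice or any pooling of animals.

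The unfolded protein response starts from 3 sensors in the membrane of the endoplasmic reticulum (ER). Ern1 encodes IRE1, a kinase and endoribonuclease that splices Xbp1 mRNA. Atf6 encodes a membrane-bound transcription factor that is released by cleavage in the Golgi. Eif2ak3 encodes PERK, which phosphorylates the translation factor eIF2. The integrated stress response shares that last step with other kinases, among them GCN2, the product of Eif2ak4, which responds to amino acid shortage. Phosphorylated eIF2 lowers general translation and favours translation of ATF4. Hepatocytes secrete much protein and lipoprotein and therefore depend on this system.

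A peak in these lists is a stretch of transcript with more reads than background, as the authors' peak caller found it. Which library served as the background is not stated. Its fold enrichment is a linear ratio over background. Its score is the negative log10 of its p-value times 10, at least 50 in both lists and held at 3100 or slightly more for the smallest p-values, so that peaks at this ceiling have no order. Both are the authors' values for single peaks. Because the lists were called separately, setting their folds or scores next to each other measures no change. Covered length here adds up the lengths of all peaks of a gene. The peaks appear cut to annotated exons, so a covered length also depends on exon sizes. Borders that recur in both lists may come from the same annotation, which was not tested. Positions are on mm10, counted from 1.

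The control list held 33968 peaks in 7462 genes with a median fold of 6.33, and the NAT10 list 41511 peaks in 8508 genes with a median fold of 6.51. Nat10 itself had 9 peaks with folds from 3.81 to 8.20 in the control list, and 10 peaks with folds from 7.10 to 17.5 in the NAT10 list, 9 of them at the score ceiling. Of 10 hepatocyte markers 3 held a peak, 1 in both lists and 2 only in the NAT10 list. Their peaks covered 2639 bases in the control list and 3158 in the NAT10 list. Alb, Ttr, Ass1, Hnf4a, Tat, Pck1 and Cyp2e1 had none in either, so the lists do not identify the tissue by these markers. Of 6 sinusoidal endothelial markers 5 held a peak, covering 25414 bases in the control list and 25708 in the NAT10 list, and all but Lyve1 were found. Of 4 macrophage markers 3 did, each in both lists (4020 and 6788 bases, Marco without a peak). All 5 stellate cell markers did, 3 in both lists and 2 only in the NAT10 list (14054 and 15018 bases). Of 3 lymphocyte markers Ptprc alone did, over 2949 and 2899 bases. The part of these cells in the results below was not tested. In whole liver, fewer cells of a type and less RNA per cell cannot be told apart.

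Of the 10 genes, 8 held peaks in both lists and 2, Atf4 and Ddit3, only in the NAT10 list. None had a peak only in the control list. Over all 8889 genes with any peak the corresponding shares were 79.7% in both lists, 16.1% only in the NAT10 list and 4.29% only in the control list, so the split of the 10 genes lies near that background. Together they held 48 peaks covering 38464 bases in the control list and 60 peaks covering 40307 bases in the NAT10 list. With 1 list per virus none of these differences has a replicate check, and the depth of the libraries is unknown.

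**Figure D1:**
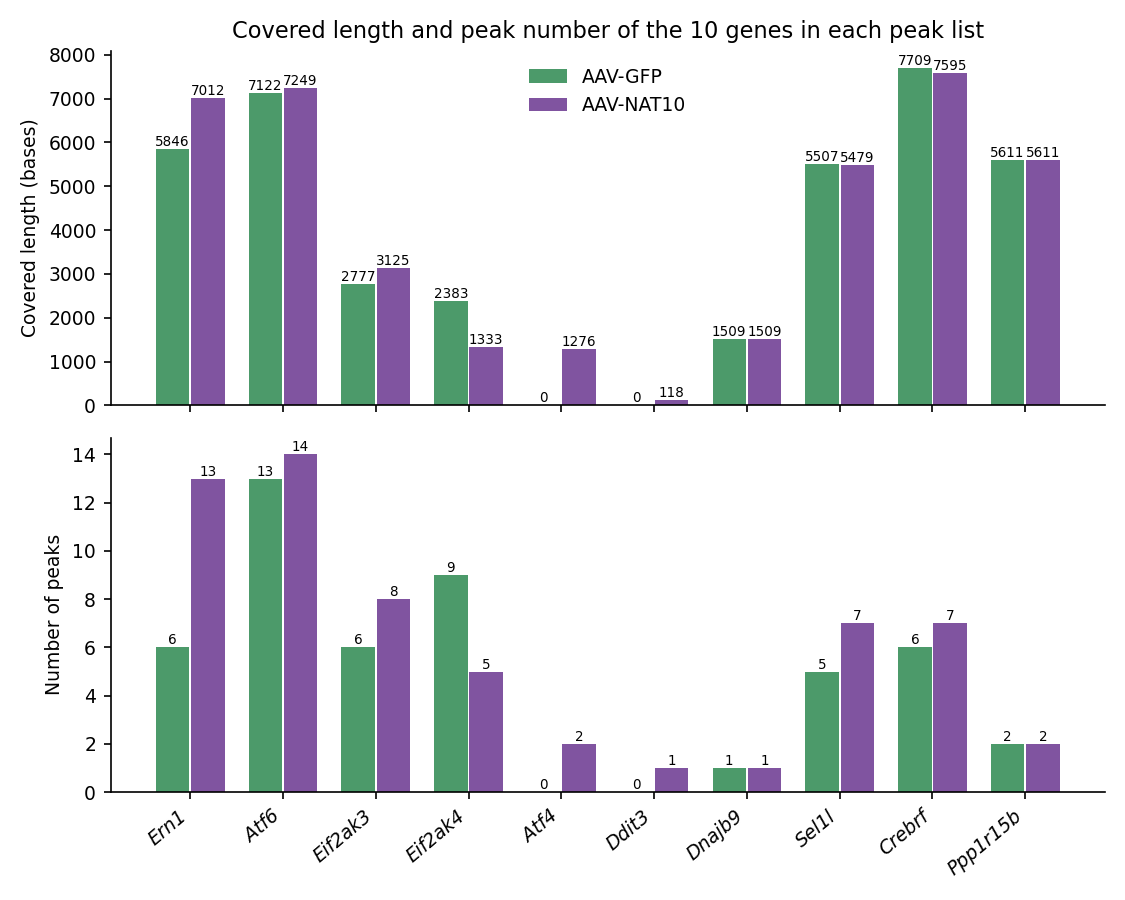
Covered length in bases (upper panel) and number of peaks (lower panel) of each of the 10 genes, with 1 bar for the AAV-GFP list and 1 for the AAV-NAT10 list. Ern1 had 6 and 13 peaks and Eif2ak4 9 and 5, while Dnajb9 and Ppp1r15b were covered equally.

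Among the 8 shared genes the covered length was larger in the NAT10 list for 3 (Ern1, Atf6 and Eif2ak3), larger in the control list for 3 (Eif2ak4, Sel1l and Crebrf) and equal for Dnajb9 and Ppp1r15b. For the 3 ER membrane sensors the difference was 1166, 127 and 348 bases, in that order. The direction held under each of 3 other selections of peaks (a score of at least 100, equal numbers of top peaks, at least the median fold) for Ern1 and Crebrf. It turned for Atf6 under 2 of them, for Eif2ak3 under 1, for Eif2ak4 under 2 and for Sel1l under all 3. Over the 7081 genes with peaks in both lists, 58.8% were covered over more bases in the NAT10 list and 27.0% over more in the control list. The median difference, NAT10 minus control, was 0 bases for the 8 genes (interquartile range -49.5 to 182.2) and 93 bases for all shared genes (-18 to 419). By number of peaks, 5 of the 8 had more in the NAT10 list and 1, Eif2ak4, more in the control list, beside 46.4% and 14.4% of all shared genes.

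Ern1 differed most between the lists in its number of peaks. It lies on the minus strand of chromosome 11 (106397620 to 106487796 in RefSeq) and held 6 peaks covering 5846 bases in the control list and 13 covering 7012 bases in the NAT10 list. All 6 control peaks recurred in the NAT10 list with the same borders. The longest, 4105 bases at 106394650 to 106398754, lies at the 3′ end and was at the score ceiling in both lists, with folds of 7.02 and 10.2. Of this peak 2970 bases lie beyond the RefSeq gene, and the lists assign it to an Ensembl transcript. The 268-base peak at 106409895 to 106410162 was also at the ceiling in both, with folds of 9.84 and 12.8.

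The other 7 Ern1 peaks of the NAT10 list had no control counterpart. They were 102 to 307 bases long and lay between the shared ones, from 58.7% to 93.5% of the way along the gene. Their folds ran from 6.37 to 12.6 with a median of 10.1, and their scores from 263.2 to 1450.6 with a median of 687.5. Of the 11829 NAT10 peaks without counterpart in the whole list, 23.6% had a score at or above the lowest of these 7, and 8.56% at or above their median. As many as 7 such added peaks were found in 149 of the 7081 shared genes (2.10%). Ern1 had the most added peaks of the 10 genes, so these shares describe a gene picked for that number. The number of exons per gene was not taken into account. The other 13 added peaks of the 10 genes had a median score of 90.6.

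**Figure D2:**
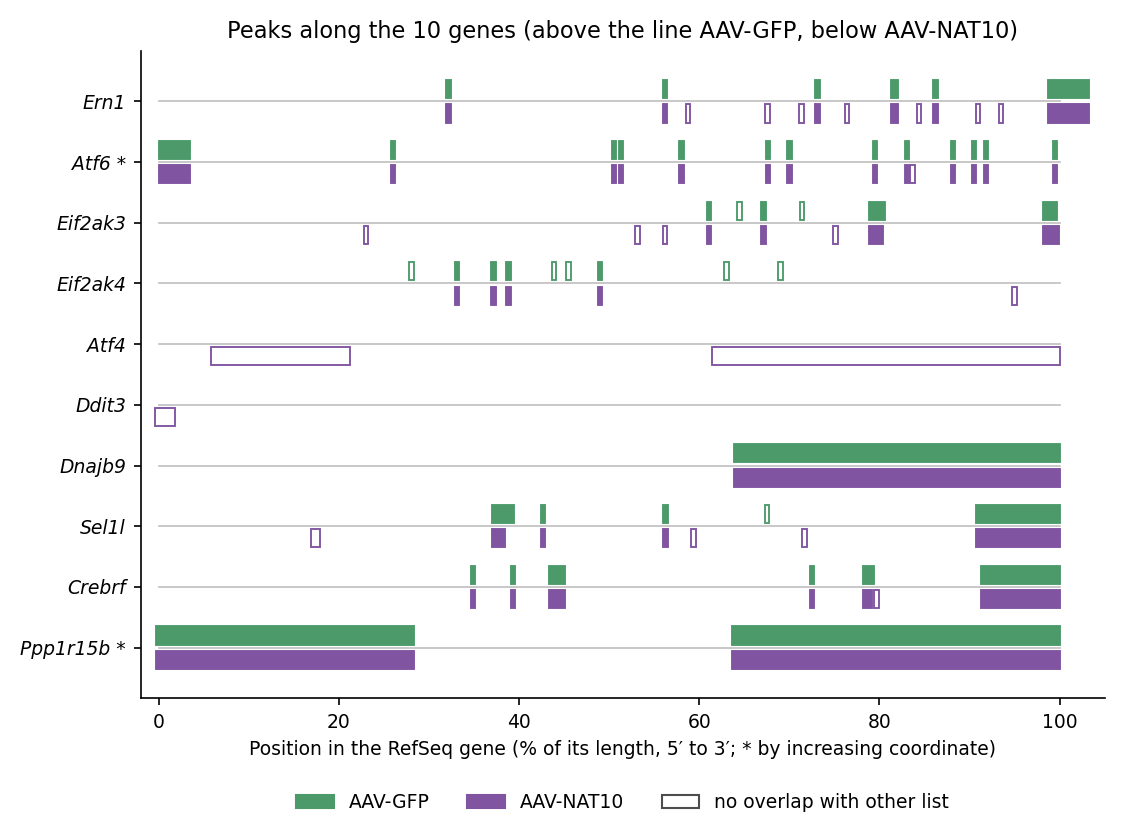
Peaks along the RefSeq gene, in percent of gene length from the 5′ to the 3′ end, or by increasing coordinate for the 2 genes marked with an asterisk, whose strand was not in the table used. Bars above each line are AAV-GFP peaks and bars below are AAV-NAT10 peaks. Open bars overlap no peak of the other list, and very narrow peaks are drawn at a fixed minimum width. The 7 open Ern1 bars lie between filled ones, and the 5 open AAV-GFP bars of Eif2ak4 lie upstream of, among and downstream of its 4 shared peaks.

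Atf6 lies on chromosome 1 (170704457 to 170868585) and held 13 peaks covering 7122 bases in the control list, each with the same borders in the NAT10 list, where 1 further peak brought it to 14 peaks and 7249 bases. That further peak, 127 bases at 170841686 to 170841812, had a fold of 3.59, at percentile 5.63 of the NAT10 list, and a score of 298.6. Most of the covered length, 79.1% in the control list and 77.7% in the NAT10 list, was a single peak of 5631 bases at the low-coordinate end of the RefSeq gene, whose strand was not in the table used. It was at the score ceiling in both lists, with folds of 9.72 and 9.33. The remaining control peaks were short and had folds from 4.07 to 10.8. Equal numbers of top peaks gave a covered length of 6493 bases in the control list and 6221 in the NAT10 list, and peaks of at least the median fold 6666 and 6658, both in the opposite order.

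Eif2ak3, the PERK gene, was covered over 2777 bases by 6 peaks in the control list and over 3125 bases by 8 peaks in the NAT10 list, on the plus strand of chromosome 6. None of its peaks reached the score ceiling in either list. The strongest in the NAT10 list lay near the 3′ end of the gene, with 1079 bases at 70904088 to 70905166, a fold of 11.3 and a score of 1325.1. The control peak there started at the same base, was 985 bases long and had fold 6.24 and score 255.8. These folds stand at percentile 88.0 of the NAT10 list and 48.8 of the control list. Of the other peaks, 2 control and 4 NAT10 ones had no counterpart. The latter 4 had scores from 52.6 to 77.9, close to the lower limit of the list, and the former 82.0 and 139.3. With peaks of a score of at least 100 alone, Eif2ak3 was covered over 2636 bases in the control list and 2510 in the NAT10 list, the opposite order.

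Eif2ak4, the GCN2 gene on the plus strand of chromosome 2, held 9 peaks covering 2383 bases in the control list and 5 covering 1333 bases in the NAT10 list. Its 4 shared peaks began and ended at the same bases. The strongest of them, 536 bases at 118421963 to 118422498, had fold 8.49 and score 462.8 in the control list and a fold of 11.2 and a score of 784.8 in the NAT10 list. The 5 control peaks without counterpart had scores between 50.4 and 79.9 and folds between 3.32 and 4.78, so they were among the weakest of that list. The 1 added NAT10 peak, 4301 bases before the end of the gene, had a score of 89.4. With peaks of a score of at least 100 alone, Eif2ak4 was covered over 964 bases in the control list and 1235 in the NAT10 list, so that the NAT10 list then had the larger covered length, as it did with peaks of at least the median fold (964 and 1080).

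Ppp1r15b encodes CReP, the constitutive subunit that directs a phosphatase to eIF2 and so opposes these kinases. Its peaks occupied the same bases in both lists. They were 2 peaks, of 2473 and 3138 bases, at 133131143 to 133133615 and 133136663 to 133139800 of chromosome 1. Both were at the score ceiling in both lists. The folds were 5.32 and 7.10 in the control list and 6.31 and 8.10 in the NAT10 list, at percentiles 33.4 and 60.6 of the first list and 47.3 and 67.9 of the second. High scores thus went with middling folds in these long peaks.

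Atf4 and Ddit3, the transcription factors downstream of eIF2 phosphorylation, were the 2 genes with peaks in the NAT10 list alone. Atf4 (chromosome 15, plus strand, 80255184 to 80257545) held 2 peaks covering 1276 bases. The larger, 912 bases at 80256634 to 80257545, ended exactly with the gene. It had a score of 1033.5, an FDR of 2.77%, and a fold of 4.77 at percentile 23.5 of the list. The smaller, 364 bases at 80255322 to 80255685, began 138 bases into the gene and had fold 3.61 and score 122.6. Peaks of the 10 genes at the score ceiling had a higher FDR, 4.58% in the NAT10 list and 11.07% in the control list. The FDR thus did not fall steadily as scores rose. Atf4 had no listed peak in the control list, which does not show that its transcript went unbound there.

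Ddit3, which encodes the death-associated factor CHOP, held a single NAT10 peak of 118 bases at 127290774 to 127290891 of chromosome 10. Of the 10 genes' strongest peaks by fold it was the lowest, at 3.57 and percentile 5.27 of the list, and a score of 113.6. The peak lies at the start of the gene, beginning 19 bases before it, and 96 of its 118 bases also lie in Mbd6, a gene on the opposite strand whose start overlaps that of Ddit3. The lists give no strand, so the reads of the 2 genes cannot be told apart and the assignment to Ddit3 is uncertain. Mbd6 had 1 peak in the control list and 2 in the NAT10 list elsewhere along its length, with highest folds of 13.95 and 11.98.

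The start of Ddit3 is the one place where a peak of these genes reaches the promoter sequences at hand, and it is shown for that reason. The 280 bases below, chr10:127290543-127290822 of the plus strand of GRCm38.p6 (the assembly of mm10, sequence from RefSeq), run from 250 bases before the RefSeq start to 30 after it. The 49 capitals are the bases that lie within the NAT10 peak. All 280 bases also lie in Mbd6, which reaches to 127290869, so the 22 peak bases outside Mbd6 are not shown.

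Ddit3 start: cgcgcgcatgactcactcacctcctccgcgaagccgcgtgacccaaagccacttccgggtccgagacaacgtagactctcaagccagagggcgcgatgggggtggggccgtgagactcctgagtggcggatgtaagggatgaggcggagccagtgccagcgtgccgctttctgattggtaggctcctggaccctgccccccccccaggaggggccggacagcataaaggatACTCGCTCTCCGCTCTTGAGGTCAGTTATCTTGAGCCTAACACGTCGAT

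RefSeq promoter windows, from 250 bases before to 50 after the start, were at hand for 8 of the 10 genes and not for Atf6 and Ppp1r15b. The ER stress element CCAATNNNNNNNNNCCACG, searched on both strands, matched in 0 of these 8 and in 0.166% of 17492 protein-coding genes. Its first 5 letters, CCAAT, which are contained in it, matched in 6 of the 8 (Eif2ak3, Atf4, Ddit3, Dnajb9, Sel1l and Crebrf) and in 42.3% of all. The motif TGACGTG matched in 0 of the 8 and in 2.49% of all. Both motifs are so rare over all genes that 0 of 8 says little about these genes. Only exact matches were counted, so a near match, in the Ddit3 sequence above or elsewhere, would be missed. These matches describe letters in a window and were not related to the peaks.

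Dnajb9 and Sel1l act in protein quality control in the ER. Dnajb9 encodes a co-chaperone of the chaperone BiP, and it held 1 peak in each list, with the same borders, of 1509 bases at the 3′ end of the gene (chromosome 12, 44205897 to 44207405). Its folds of 6.38 and 6.44 lay at percentiles 51.0 and 49.3, near the middle of both lists, and its scores were 240.7 and 254.3. Sel1l encodes the adaptor of the ubiquitin ligase that removes misfolded ER proteins. It held 5 peaks covering 5507 bases in the control list and 7 covering 5479 bases in the NAT10 list. The 4011-base peak at its 3′ end (chromosome 12, 91806043 to 91810053) made up 72.8% and 73.2% of that length, with folds of 6.16 and 6.31 and a score at the ceiling in both.

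The nearly equal covered length of Sel1l came from partly different peaks. Of its bases 4947 were covered in both lists, 560 only in the control list and 532 only in the NAT10 list. The 28 bases by which the control list exceeded the NAT10 list turned to an excess of the NAT10 list of 318 to 609 bases under the 3 other selections of peaks. A peak of 1048 bases in the control list (91832175 to 91833222, fold 3.69, score 79.9) was 618 bases long in the NAT10 list (fold 4.30, score 56.3). Nearer the start of the gene, a 397-base peak at 91841458 to 91841854 was found only in the NAT10 list, with fold 7.68 and score 265.

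Crebrf, a regulator that promotes the loss of the ER-bound factor CREB3, had the highest folds of the 10 genes. Its peak of 5344 bases at the 3′ end (chromosome 17, 26771292 to 26776635) had folds of 29.5 in the control list and 30.9 in the NAT10 list and the same borders in both. By the highest fold of a gene, Crebrf ranked 9 among the 7462 genes of the control list and 18 among the 8508 of the NAT10 list. Its other control peaks, with folds from 8.20 to 12.3, were also above the list median. In the NAT10 list a 1090-base peak at 26742042 to 26743131 was at the score ceiling with a fold of 9.12, and in the control list the same peak had a score of 1792.5 and a fold of 8.20. A 764-base peak of the control list, ending at 26764089, overlapped a 608-base NAT10 peak that began at the same base, which left 156 bases covered only in the control list. A NAT10 peak of 42 bases at 26764218 to 26764259, with a fold of 4.40, lay beyond the end of that control peak and overlapped none.

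**Figure D3:**
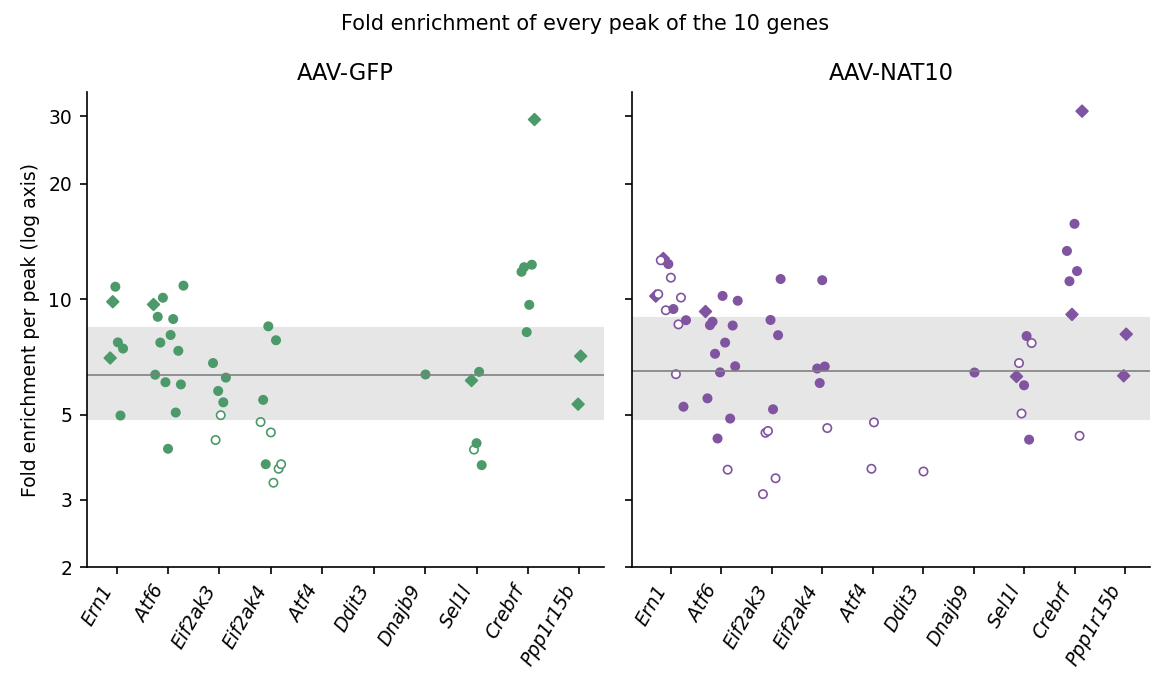
Fold enrichment of every peak of the 10 genes on a log axis, with the AAV-GFP list on the left and the AAV-NAT10 list on the right. The grey line and band give the median and interquartile range of all peaks of that list, diamonds mark peaks at the score ceiling, and open symbols mark peaks that overlap none of the other list. Crebrf stands highest in both, and the open AAV-GFP symbols all lie under the median fold of 6.33.

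Peak by peak, 40 of the 48 control peaks (83.3%, exact Clopper-Pearson 95% interval 69.8 to 92.5) overlapped a NAT10 peak by at least 1 base, and 40 of the 60 NAT10 peaks (66.7%, 53.3 to 78.3) overlapped a control peak. The intervals cover counting error only and treat peaks as independent, although many come from the same gene. The shares over all peaks were 87.4% and 71.5%. The borders were the same in both lists for 36 peaks, of 48 and of 60, while 73.6% and 60.2% of all peaks of the 2 lists had such borders. Of the 8 control peaks without counterpart, 5 were in Eif2ak4, 2 in Eif2ak3 and 1 in Sel1l, and 7 had a score under 100, as did 46.8% of all such control peaks. Of the 20 in the NAT10 list, 7 were in Ern1, 4 in Eif2ak3, 3 in Sel1l, 2 in Atf4 and 1 each in Atf6, Eif2ak4, Ddit3 and Crebrf, and 7 had a score under 100, as did 38.9% of all such NAT10 peaks.

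The 7 control peaks at the score ceiling (14.6% of 48, beside 4.56% of all control peaks) and the 8 of the NAT10 list (13.3% of 60, beside 6.96%) all had a counterpart with the same borders, as did 80.8% of all control and 77.9% of all NAT10 peaks at the ceiling. They belong to 5 genes, Ern1, Atf6, Sel1l, Crebrf and Ppp1r15b. The same 5 genes had a peak of at least 2000 bases, 5 of the 8 with a peak in the control list and 5 of the 10 in the NAT10 list, beside 34.9% and 32.5% of all genes of these lists.

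Where the strand was known, peaks often lay at or near the 3′ end of the gene. A peak within 200 bases of that end was found for 5 of 6 genes in the control list and 6 of 8 in the NAT10 list, beside 60.5% of 5634 and 62.2% of 6413 genes. The 6 were Ern1, Eif2ak3, Dnajb9, Sel1l, Crebrf and, in the NAT10 list, Atf4. Eif2ak4 had none in either list and Ddit3 none in the NAT10 list. An annotation of exons and untranslated regions was not used here, so the peaks were placed by gene borders only.

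To set these genes among their partners, 5 lists of 77 further genes of the same pathways were read. Of the 77, 28 had no peak in either list. Of the 49 with a peak, 39 appeared in both peak lists, 8 only in the NAT10 list and 2 only in the control list. Over all genes with a peak these shares were 79.7%, 16.1% and 4.29%, so the split lies near that background. Of the 39 in both, 23 had the larger covered length in the NAT10 list and 14 in the control list, with a median difference of 120 bases. Over all genes with peaks in both lists the shares were 58.8% and 27.0%, and the median difference was 93 bases. By the annotation that the deposited lists carry, 119 genes with a peak belong to protein processing in the ER, 7 of the 10 genes among them. Of these 119, 81.5% had a peak in both lists, 16.8% only in the NAT10 list and 1.68% only in the control list.

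Of 18 ER chaperones and folding enzymes 9 held no peak in either list, including Hspa5, the chaperone BiP that holds the sensors inactive, and Hsp90b1, Calr and P4hb. Canx, a lectin chaperone, had 1 peak of 157 bases in the NAT10 list alone (score 108.6), and Pdia6, a disulfide isomerase, 1 of 107 bases in the control list alone (score 73.5). Dnajc3, an inhibitor of PERK, was covered over 3858 bases in the control list and 3862 in the NAT10 list, and Ero1lb, an ER oxidase, over 3117 and 4029.

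In ER-associated degradation 13 of 16 genes held a peak, 10 of them in both lists. Syvn1, the ubiquitin ligase that works with Sel1l, had 2 peaks covering 1937 bases in the NAT10 list alone, with a highest fold of 9.96 and a highest score of 2283.5. Os9, a lectin of the same complex, also had peaks only in the NAT10 list, over 303 bases with a highest score of 105.3. Derl2 had 1 peak of 2987 bases in the control list alone, with a score of 349.4. The mannosidase-like genes Edem1 and Edem3 were covered over 4842 and 6812 bases in the control list and over 5019 and 6481 in the NAT10 list.

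Among 10 ER stress transcription factors and their processing enzymes 5 held peaks, all 5 in both lists. Xbp1, the splicing target of IRE1, and Creb3, the factor that Crebrf acts on, held none in either. Creb3l2 was covered over 6211 bases in the control list and 6576 in the NAT10 list. Mbtps1, which makes the first Golgi cut in ATF6, had 16 and 17 peaks over 4856 and 4403 bases, with highest folds of 16.9 and 23.9.

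Of 15 genes of eIF2 control 12 had peaks in both lists and 1, Eif2b2, a subunit of the eIF2 exchange factor, only in the NAT10 list, with a score of 54.9. Gcn1l1, the activator of GCN2, was covered over 4167 bases by 15 peaks in the control list and over 5020 bases by 21 peaks in the NAT10 list. Eif2s3x, the gamma subunit of eIF2, was covered over 2683 and 3439 bases. These 2 were named for their large covered length. Of all 12 genes in both lists, 6 were covered over more bases in the NAT10 list and 6 in the control list.

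Among 18 targets and partners of ATF4 and CHOP 9 held a peak, 5 of them in both lists and 4 only in the NAT10 list, beside 16.1% of all genes with a peak that were found only there. Cebpb, a dimerisation partner of CHOP, had 1 peak of 1518 bases at the score ceiling with a fold of 13.4. Bbc3, a pro-apoptotic gene, had 1 of 1128 bases with a fold of 14.0, Atf5 had 2 over 1559 bases, and Gdf15, a secreted stress hormone, 2 over 1131 bases. These 4 had highest scores from 583.7 to 3100, unlike the Ddit3 peak. The gene lists were chosen with earlier results of these data known, so the share found only in the NAT10 list is description. Of the 5 genes in both lists, 2 were covered over more bases in the NAT10 list and 3 in the control list. Their median difference, NAT10 minus control, was -9 bases. Cebpg was covered over 4511 and 4186 bases and Sesn2 over 1938 and 2175, while Asns, Atf3 and Fgf21 were among the 9 with no peak.

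**Figure D4:**
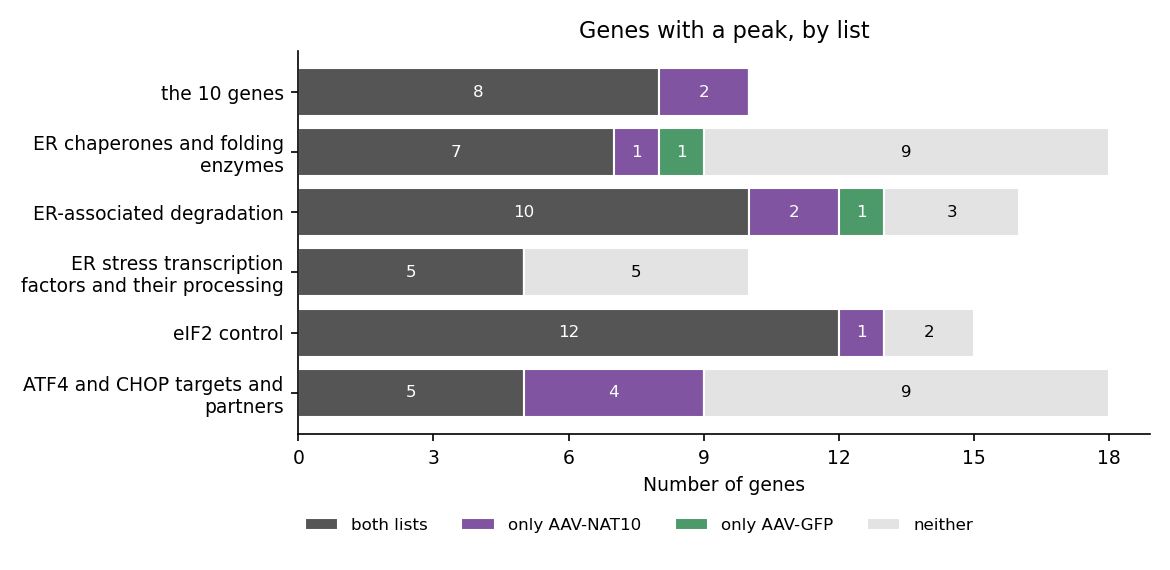
Number of genes with a peak in both lists, in 1 list or in neither, for the 10 genes and for each of the 5 pathway lists. Each list has at most 1 gene found only in AAV-GFP, and between 0 and 4 found only in AAV-NAT10.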

How the data were processed

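Peaks of immunoprecipitated RNA were deposited as 1 list per virus. Their names are those that MACS gives, per the file headers. Its version, the aligner and any filters are not recorded in the labels. Coordinates are on mm10, which the submitters' processing notes name. Per the file headers, each peak has the authors' fold enrichment, read here as a linear ratio, and a score, the negative log10 of its p-value times 10, both as deposited. The FDR deposited by the authors was read as a percent, from 0 to 18.18 in AAV-GFP and from 2.44 to 40 in AAV-NAT10.

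Starts in the lists count from 0 and were raised by 1. Peaks were joined to genes by the lists' own gene names, and overlaps needed 1 base. Strand and gene borders came from RefSeq (GRCm38.p6). The overlap count was tested on simulated intervals. Read counts and depths are unknown here. With 1 list per virus no test and no p-value is given. The members and lists were chosen with earlier results of these data known. The naming rule took all 10 genes and, in each of the 5 pathway lists, every gene with peaks in just 1 of the peak lists and, of those in both, up to 2 with the largest covered length; genes without a peak named beside them, Nat10, Mbd6 and the marker lists were added. Sequence motifs inside peaks were planned but not searched, since the sequences used here are RefSeq promoter windows alone. Python 3.11.15 with pandas 2.3.3 and SciPy 1.17.1 was used.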

Additional observations from a re-analysis of the deposited data

How the results depend on the processing

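Taking peaks with a score of at least 100 left 35 and 51 member peaks (AAV-GFP and AAV-NAT10, in place of 48 and 60) and all members in their place. It raised the overlapped share of the AAV-GFP peaks to 94.3%, and 4 pathway genes in place of 2 then had a peak only in AAV-GFP. Taking the 16984 top peaks of each list left 25 and 29 member peaks. Atf4 alone was then found only in AAV-NAT10 (1 in place of 2), Ddit3 and Dnajb9 in neither (2 in place of 0), and 23 pathway genes in place of 39 in both lists. Taking peaks with at least the median fold of their list left 26 and 36. Atf4 and Ddit3 were then in neither list (2 in place of 0), none was only in AAV-NAT10 (0 in place of 2), and Dnajb9 was only in AAV-GFP (1 in place of 0), its folds of 6.38 and 6.44 lying beside medians of 6.33 and 6.51. With at least 2 peaks per gene Atf4 alone was only in AAV-NAT10 (1 in place of 2), and Ddit3 and Dnajb9 were in neither (2 in place of 0). The covered length difference, AAV-NAT10 minus AAV-GFP, changed sign with a score of at least 100 for Eif2ak3 (-126 bases, from 348), Eif2ak4 (271, from -1050) and Sel1l (609, from -28), with equal numbers of top peaks for Atf6 (-272, from 127) and Sel1l (318), and with at least the median fold for Atf6 (-8), Eif2ak4 (116) and Sel1l (475). The cause was not tested. Counting an overlap only from 0.5 of a peak's length, one way or reciprocally, moved neither overlapped share. Covered lengths within exons were not run. No paired analysis was possible because each virus has 1 list. Depth is unknown, and a gene without a listed peak may have been bound.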
